A study of Mus musculus with 8 samples.

Results

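The 9 genes Ins1, Ins2, Gcg, Sst, Ppy, Ghrl, Iapp, Pyy and Gast encode peptide hormones of islet and enteroendocrine cells. They were chosen by name, as the probes whose gene name in the scanner files is one of these symbols. This gave 13 probes of 41174 on the array, all of them among the 29462 probes tested, and 9 of the 19386 genes and unnamed probes that formed the gene-level comparison. Gcg, Ins2, Ghrl and Pyy had 2 probes each and the other 5 genes had 1.

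RNA came from dorsal and ventral pancreatic epithelium of mouse embryos at e15.5 (embryonic days counted from the plug), hybridised to one-colour arrays in 4 wild-type and 4 Sox9 mutant pools. Mutant embryos were Sox9 fl/fl; Rosa26-CreER and the wild-type littermates were Rosa26-CreER without the floxed alleles, so both genotypes carried the recombinase. The Sox9-flox line was of mixed background (FVB/N, C57Bl/6J and CD1) and the Rosa26-CreER line was C57Bl/6J. All dams received tamoxifen (6 mg per 40 g) at e12.5. Rosa26 is active in nearly all cell types, so the deletion was not directed to the epithelium alone. Each array measured a pool of 4 pancreata, and p-values therefore refer to the spread between pools, not between single embryos.

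In the adult islet, beta cells release insulin and islet amyloid polypeptide, alpha cells glucagon, delta cells somatostatin and PP cells pancreatic polypeptide, while the fetal pancreas also holds ghrelin cells and gastrin-expressing cells. All of these cells arise from progenitors of the pancreatic epithelium that pass through a Neurog3-positive stage, and Sox9, a transcription factor of those progenitors and of ducts, acts upstream of that stage. Each hormone is made as a precursor that convertases cut inside secretory granules. RNA of a whole epithelium does not distinguish fewer cells of a type from less RNA per cell.

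Levels below are log2 values of the background-subtracted signal with the 75th percentile of each array set to 0, and values of pools are listed in the order of replicates 1 to 4. The deletion was visible in 2 of the 3 Sox9 probes, which lay lower in all 4 mutant pools than in any wild-type pool, with log2 fold changes of -1.32 and -2.50 (-1.29 and -2.58 without mutant replicate 2). The third probe was dimmer, with a mean wild-type level of -2.50, though well above background on all 8 arrays. It was not called (log2 fold change 0.65, limma adjusted p = 0.338, and 0.24 without mutant replicate 2). Mutant replicate 2 stood apart. Its median signal was 756 scanner units against 219 to 272 on the other 7 arrays, 86.1% of its probes were well above background against 69.6% to 74.0%, and its median correlation with arrays of its genotype was 0.92 against at least 0.99. It is kept in the main values, and the value without it is given beside the results on the hormone genes and the other genes named for their change. All wild-type arrays were on 1 slide and in 1 scan run and all mutant arrays on another slide in another run, so slide, run and genotype cannot be told apart.

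The promoters of Sst, Ins1 and Gcg show how the regulatory sequence differs among hormone genes with different values in the mutant. RefSeq windows (GRCm38.p6) were found for 8 of the 9 genes, all but Ins2. The 250 bases before the annotated start are printed 5′ to 3′ on the gene's strand for Sst, which was called lower in the mutant, for Ins1, which was called lower only without mutant replicate 2 and with array weights, and for Gcg, which was not called lower. The windows are chr16:23890845-23891094 (minus strand) for Sst, chr19:52264047-52264296 (plus strand) for Ins1 and chr2:62483654-62483903 (minus strand) for Gcg. Capitals mark TAAT or its complement ATTA, the core bound by homeodomain factors such as PDX1, CATCTG or its complement CAGATG, an E box of the kind bound by NEUROD1, and TGACGTCA, the cyclic AMP response element.
Sst: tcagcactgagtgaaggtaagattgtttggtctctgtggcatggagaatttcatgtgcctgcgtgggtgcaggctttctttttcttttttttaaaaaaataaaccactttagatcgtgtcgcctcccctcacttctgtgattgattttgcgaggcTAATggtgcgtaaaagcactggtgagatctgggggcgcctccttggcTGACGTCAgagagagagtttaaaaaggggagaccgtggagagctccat
Ins1: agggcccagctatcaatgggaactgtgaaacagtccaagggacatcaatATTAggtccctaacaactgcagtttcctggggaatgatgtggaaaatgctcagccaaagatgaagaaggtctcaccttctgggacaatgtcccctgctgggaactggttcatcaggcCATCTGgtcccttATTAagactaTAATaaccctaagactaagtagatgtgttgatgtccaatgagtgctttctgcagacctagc
Gcg: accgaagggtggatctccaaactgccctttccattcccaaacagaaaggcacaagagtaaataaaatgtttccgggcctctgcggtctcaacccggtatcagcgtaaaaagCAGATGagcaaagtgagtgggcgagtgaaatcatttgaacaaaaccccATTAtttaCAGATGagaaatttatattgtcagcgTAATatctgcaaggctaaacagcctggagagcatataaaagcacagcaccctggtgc
Variants of the motifs and bases further upstream were not searched. The exact sequence TGACGTCA occurred once in the Sst window and in none of the other 7 genes with a window. Among all 32851 windows of 250 bases, 1.55% held it. The E box occurred 2 times in the Gcg window, once in Ins1 and once in Iapp, and 14.4% of all windows held it. TAAT occurred 5 times in Iapp, 3 times in Ins1, 2 times in Gcg and once each in Sst and Gast. It is common, with 54.9% of all windows holding at least 1 copy. No match overlapped a match of another of these motifs in these windows. The 4 windows of Ghrl, the 2 of Pyy and the 1 of Ppy held none of the motifs. Sst and Ghrl, both called lower, differed in these motifs, and Gcg shared the E box and TAAT with Ins1. Whether the motifs bear on the changes in the mutant was not tested. These matches describe the letters in the windows and are not measured binding sites.

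Somatostatin, ghrelin and gastrin transcripts fell in the Sox9 mutant, and no hormone gene rose past the threshold. Called means a limma adjusted p under 0.05 over all 19386 genes (Benjamini-Hochberg). By this rule 3 of the 9 hormone genes were lower and 0 were higher, where 3.25% of all genes were called lower and 2.23% higher. At an unadjusted p under 0.05, 6 hormone genes were lower and 0 higher, where 14.6% of all genes were lower at that cut. Leaving out any 1 array other than mutant replicates 2 and 3 left 0 hormone genes called by limma (4 to 6 at an unadjusted p under 0.05, which 18.2% to 23.6% of all genes passed), and without mutant replicate 3 only Ghrl was called. The median log2 fold change of the 9 genes was -1.06, against 0.01 over all genes. Without mutant replicate 2, Ins1 and Ins2 were called too, which made 5 lower and 0 higher; of all genes 17.2% were then called, 1947 lower and 1396 higher. The median without that pool was -0.74 against -0.02 over all genes. Tested probe by probe, 2 of the 13 hormone probes were called lower and 0 higher, where 2.15% of all probes were called lower; leaving out mutant replicate 2 gave 7 lower and 1 higher, where 15.8% of all probes were called. The mutant range lay wholly beneath the wild-type range for Ins1, Ins2, Sst, Ghrl and Gast, a pattern that 14.1% of all genes showed.

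**Figure D1:**
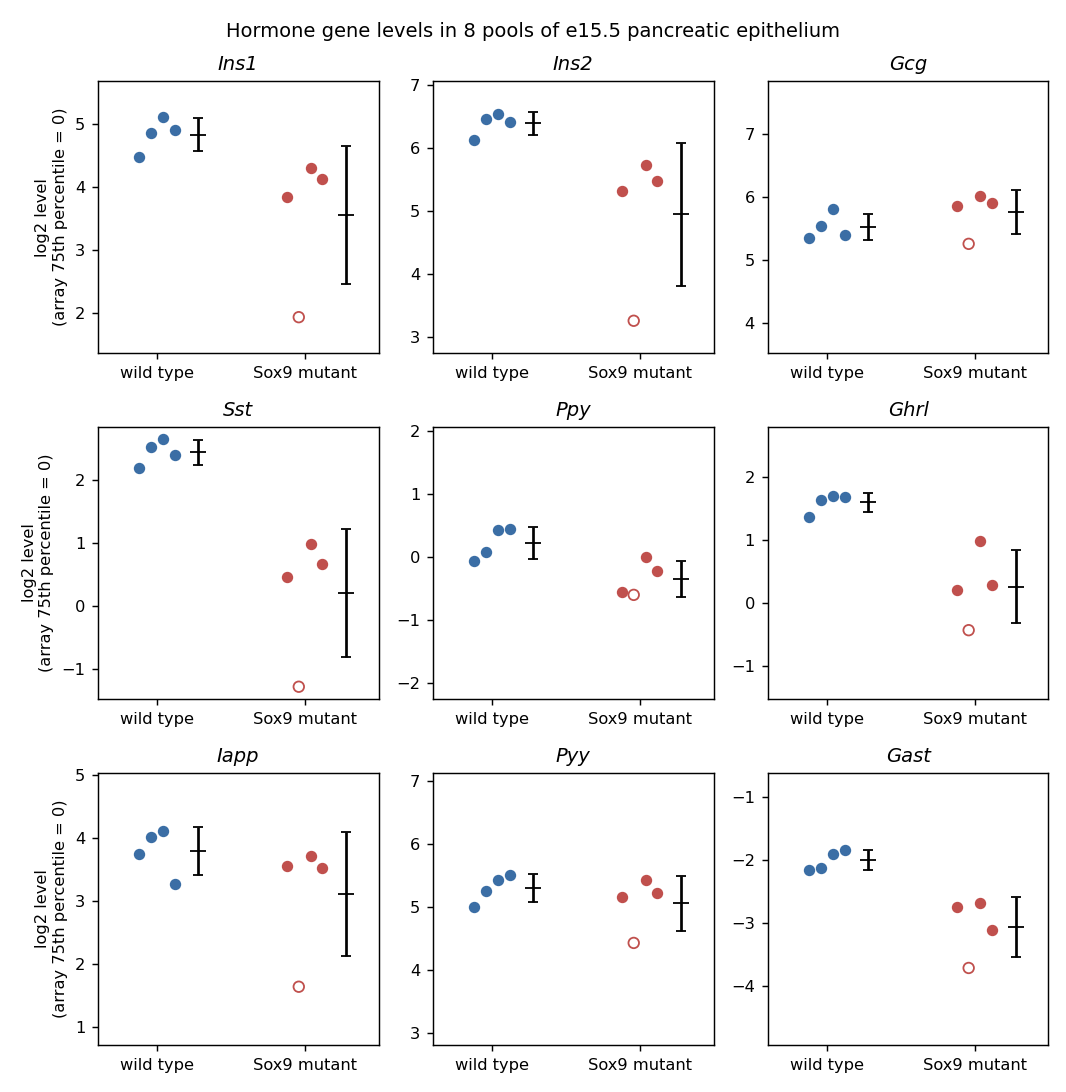
Level of each hormone gene in every pool (y axis, log2 signal with the 75th percentile of the array at 0; every panel spans the same range of log2 units) by genotype (x axis). Points are pools, the open circle is mutant replicate 2, and the bar beside each group is its mean ± SD (n = 4). The groups do not overlap for Ins1, Ins2, Sst, Ghrl and Gast, and mutant replicate 2 is the lowest mutant pool in all 9 panels.

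Sst, the hormone of delta cells that restrains insulin and glucagon release, had the largest estimated decrease of the 9 genes. Its 95% interval overlapped those of the insulin genes, Ghrl, Gast and Iapp. Without mutant replicate 2 the Sst interval (-2.09 to -1.38) overlapped only that of Ghrl (-1.56 to -0.65). The Sst probe lies at chr16:23805039-23805098 and was printed in 10 spots. Probe positions are given on the older mouse assembly mm8, for which no gene models were used here. The levels were 2.20, 2.52, 2.65 and 2.40 in the wild-type pools and 0.47, -1.28, 0.98 and 0.67 in the mutant pools. The highest mutant pool was thus well below the lowest wild-type pool. The means were 2.44 ± 0.19 and 0.21 ± 1.01 (SD, n = 4), a log2 fold change of -2.23 ± 0.47 (SE; 95% interval -3.32 to -1.14; limma adjusted p = 0.0395), which is 4.69-fold and leaves 21.3% of the wild-type signal. The mutant mean without replicate 2 was 0.71 ± 0.26 (n = 3) and the decrease was 3.33-fold (log2 -1.73, limma adjusted p = 0.00121). The 10 spots of an array had an SD of 0.03 to 0.07, which covers the error of the spots alone. The decrease kept its direction in all 19 alternatives that gave a value, where its adjusted p ranged from 0.000591 to 0.151. Leaving out any single array other than mutant replicate 2 raised the adjusted p to 0.0523 to 0.107.

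The insulin genes were lower in every mutant pool, but the difference passed the threshold only without mutant replicate 2 and with array weights. Mice have 2 insulin genes, and Ins1 is a retroposed copy of Ins2. Ins2 was measured by a probe at chr7:142488160-142488219 and by another, in 10 spots, at chr7:142488140-142488199, which share 40 bases. At the first, the levels were 6.12, 6.46, 6.54 and 6.41 in the wild-type pools and 5.32, 3.25, 5.72 and 5.48 in the mutant pools. The other mutant pools, replicates 1, 3 and 4, lay close together below the wild-type range, and replicate 2 lay far below them. The means were 6.38 ± 0.18 and 4.94 ± 1.14, a log2 fold change of -1.44 ± 0.52 (95% interval -2.66 to -0.22; limma adjusted p = 0.145). Without mutant replicate 2 the mean of the other 3 mutant pools was 5.50 ± 0.20, 54.4% of the wild-type signal, with a log2 fold change of -0.88 (95% interval -1.18 to -0.57; limma adjusted p = 0.00712, against a range of 0.00690 to 0.421 over the alternatives). The second Ins2 probe gave -1.40, and -0.87 without that pool.

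Ins1 was measured by 1 probe at chr19:52318117-52318176. Its levels were 4.47, 4.86, 5.11 and 4.90 in the wild-type pools and 3.85, 1.94, 4.31 and 4.13 in the mutant pools, so the same pool was lowest. The log2 fold change was -1.28 ± 0.51 (95% interval -2.47 to -0.09; limma adjusted p = 0.175). Leaving out mutant replicate 2 gave -0.74 (95% interval -1.13 to -0.34; limma adjusted p = 0.0276, against 0.0222 to 0.470 over the alternatives), which leaves 59.9% of the wild-type signal. Probes of Ins1 and Ins2 may share signal to an extent not measured here, because the coding sequences of both genes are alike.

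Iapp, whose peptide is stored and released with insulin, was low in mutant replicate 2 but not in the other 3 mutant pools. Its probe lies at chr6:142260777-142260836. The levels were 3.75, 4.02, 4.11 and 3.27 in the wild-type pools and 3.56, 1.64, 3.72 and 3.53 in the mutant pools. Mutant replicates 1, 3 and 4 lay inside the wild-type range, and wild-type replicate 4 was the lowest of its group. The log2 fold change was -0.68 ± 0.48 (95% interval -1.79 to 0.44; limma adjusted p = 0.397) with all arrays. With mutant replicate 2 left out it was -0.19 (95% interval -0.65 to 0.28; limma adjusted p = 0.537, with 0.207 to 0.564 over the alternatives). A decrease of the size seen for Sst lies outside that interval.

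Gcg, which encodes glucagon and the glucagon-like peptides, was the member with a positive difference. The bright probe, at chr2:62275467-62275526 in 10 spots, had levels of 5.34, 5.54, 5.80 and 5.39 in the wild-type pools and 5.85, 5.25, 6.02 and 5.91 in the mutant pools. Mutant replicates 1, 3 and 4 lay above every wild-type pool, while mutant replicate 2 lay below them all. The log2 fold change was 0.24 ± 0.19 (95% interval -0.20 to 0.67; limma adjusted p = 0.440). It was 0.41 without mutant replicate 2 (95% interval 0.13 to 0.68), with a limma adjusted p of 0.0562 just above the threshold and a range of 0.031 to 0.83 over the alternatives. The direction depended on the scaling: subtracting the median of each array in place of the 75th percentile gave -0.15, but it moved the median of all genes from 0.01 to -0.38, and relative to the median gene Gcg was at 0.23 under both. A second Gcg probe, at chr2:62281577-62281636, was near background, between 19.8 and 40.9 scanner units and well above background in 2 wild-type and 3 mutant pools, and gave 0.31 (limma adjusted p = 0.438 in the fit over probes). Without mutant replicate 2 it gave 0.55 and was called (limma adjusted p = 0.0277). With array weights the bright probe was called higher too (0.38, limma adjusted p = 0.0312).

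Ghrl encodes ghrelin, the hunger hormone of the stomach, which a transient islet cell type makes before birth. Its probe over chr6:113682031-113682873 had levels of 1.38, 1.64, 1.71 and 1.68 in the wild-type pools and 0.22, -0.42, 0.98 and 0.29 in the mutant pools. The groups did not overlap, with mutant replicate 3 the nearest to them. The mutant differed by a log2 fold change of -1.34 ± 0.27 (95% interval -1.97 to -0.70; limma adjusted p = 0.0370), and -1.11 without mutant replicate 2 (limma adjusted p = 0.0124, with 0.00805 to 0.225 over the alternatives). The other Ghrl probe, over chr6:113682884-113684891, gave -1.35 with an adjusted p of 0.0761 in the fit over probes, and -1.03 without mutant replicate 2 (limma adjusted p = 0.0179). Ghrl was called in 9 of 20 alternatives. Leaving out any single array other than mutant replicates 2 and 3 raised its adjusted p to 0.0842 to 0.104.

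Gast encodes gastrin, which drives acid secretion in the adult stomach and is expressed in fetal islets. Its signal was low, from 470 to 660.2 scanner units in the wild-type pools and from 195 to 362 in the mutant pools, and well above background in all of them. The probe, at chr11:100152582-100152641, had levels of -2.15, -2.12, -1.91 and -1.83 in the wild-type pools and -2.73, -3.71, -2.68 and -3.10 in the mutant pools. The groups did not overlap. Gast changed by a log2 fold of -1.06 ± 0.23 (95% interval -1.59 to -0.52; limma adjusted p = 0.0445), and -0.84 without mutant replicate 2 (limma adjusted p = 0.00834, with 0.00429 to 0.328 over the alternatives). Leaving out any other single array raised the adjusted p to 0.0574 to 0.116. Gast was called in 6 of 20 alternatives, and in the fit over probes its limma adjusted p was 0.0536.

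Ppy and Pyy, neighbouring genes of the neuropeptide Y family, did not pass the threshold. Ppy, the pancreatic polypeptide of PP cells, was measured over chr11:101916357-101916653 and had levels of -0.06, 0.09, 0.43 and 0.44 in the wild-type pools and -0.56, -0.60, -0.01 and -0.22 in the mutant pools. The groups overlapped in 1 mutant pool, replicate 3, which was above the lowest wild-type pool. For Ppy the log2 fold change was -0.57 ± 0.18 (95% interval -0.98 to -0.16; limma adjusted p = 0.107), and -0.48 without mutant replicate 2. Pyy, peptide YY of gut L cells and of fetal islet cells, was measured at chr11:101922766-101922825 and had levels of 5.0, 5.25, 5.43 and 5.51 in the wild-type pools and 5.16, 4.43, 5.42 and 5.22 in the mutant pools. Apart from mutant replicate 2 the mutant pools lay inside the wild-type range. For Pyy the log2 fold change was -0.24 ± 0.23 (95% interval -0.77 to 0.29; limma adjusted p = 0.513). Without mutant replicate 2 it was -0.03 (95% interval -0.34 to 0.28). The second Pyy probe, at chr11:101923087-101923146, gave -0.26, and -0.04 without that pool.

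**Figure D2:**
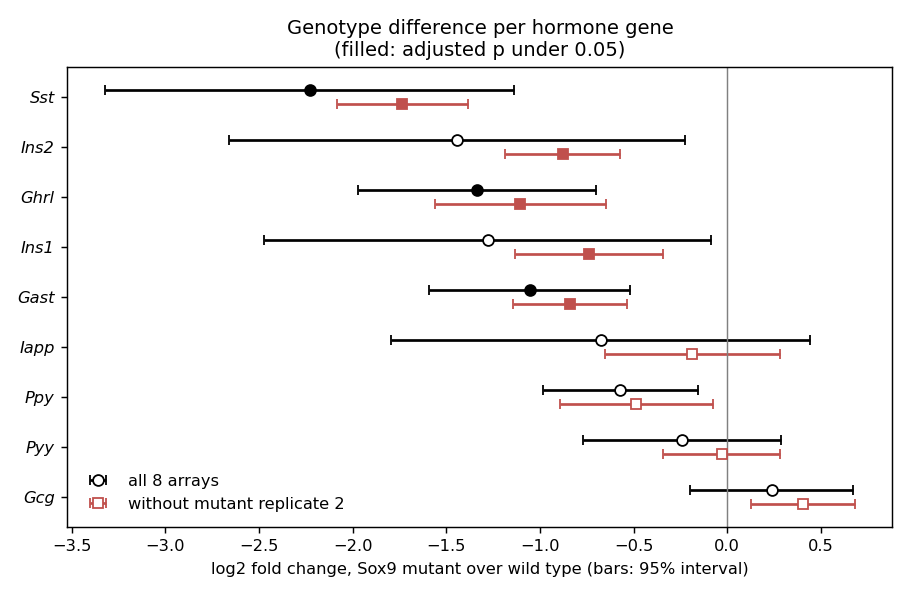
Log2 fold change of each hormone gene, Sox9 mutant over wild type (x axis), with its 95% interval, from all 8 arrays (black circles) and without mutant replicate 2 (red squares); filled symbols have a limma adjusted p under 0.05. Sst, Ghrl and Gast are filled in both, Ins1 and Ins2 only without that pool, and Gcg lies to the right of 0.

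The signal of Ins2 relative to Gcg was lower in every mutant pool than in any wild-type pool, although neither gene was called and the adjusted p of the ratio was above 0.05. A ratio of signals within an array does not depend on the scaling between arrays, and since 2 probes differ in their efficiency only its difference between genotypes is read. The log2 ratio of Ins2 to Gcg was 0.79, 0.92, 0.74 and 1.02 in the wild-type pools and -0.53, -2.0, -0.30 and -0.43 in the mutant pools. The groups did not overlap, with means of 0.87 ± 0.13 and -0.81 ± 0.80 (SD, n = 4). The ratio was 3.20-fold lower in the mutant (log2 difference -1.68; two-sided exact permutation test, p = 0.0286, the smallest that 4 against 4 arrays can give; 0.0571 after Benjamini-Hochberg adjustment over the 2 ratios tested). On the other 7 arrays it was 2.44-fold lower (log2 -1.28, exact permutation p = 0.0286). Gcg, the member with a positive difference, was chosen for this ratio with earlier results of these data known. The p-values and their adjustment do not account for that choice, so they describe the separation and are not independent support for it.

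The ratio of both insulin genes hardly moved, though their probes may share signal to an extent not measured here. The log2 ratio of Ins1 to Ins2 was -1.65, -1.60, -1.43 and -1.51 in the wild-type pools and -1.47, -1.32, -1.41 and -1.35 in the mutant pools. The ranges overlapped, and the difference was 0.16 (two-sided exact permutation test, p = 0.0571, also 0.0571 adjusted). Without wild-type replicate 3 it was 0.20 (exact permutation p = 0.0286), and without mutant replicate 2 it was 0.14 (exact permutation p = 0.114). In mutant replicate 2, where both insulin genes were far below the other mutant pools, this ratio was -1.32, close to theirs.

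**Figure D3:**
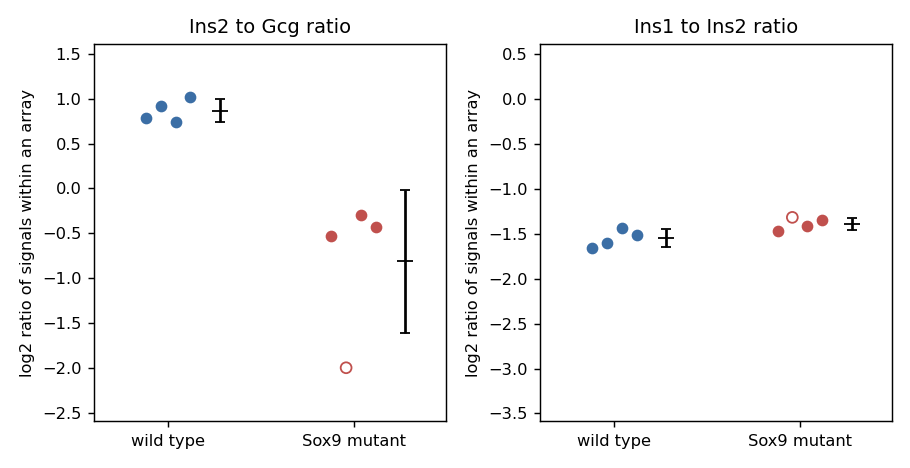
Log2 ratio of Ins2 to Gcg signal (left) and of Ins1 to Ins2 signal (right) within each array, by genotype; both panels span the same range of log2 units. Points are pools, the open circle is mutant replicate 2, and bars are the mean ± SD (n = 4). The Ins2 to Gcg ratio is lower in all mutant pools than in any wild-type pool, while the Ins1 to Ins2 ratio lies between -1.65 and -1.32 throughout.

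Mutant replicate 2 differed from the other mutant pools far more for some hormones than for others. Its level minus the mean of the other 3 mutant pools was -2.25 for Ins2, -2.16 for Ins1, -1.98 for Sst and -1.96 for Iapp. It was -0.92 for Ghrl, -0.87 for Gast, -0.84 for Pyy, -0.67 for Gcg and -0.34 for Ppy. The first 4 genes were the 4 lowest of the 3341 genes with a mean wild-type level above 2, whose median gap was -0.27 (5th percentile -0.52). Only 7 of the 3341 had a gap below -1.5. The other 3, which were named after their values were seen, were Plac9a (-1.75), Rnase1 (-1.56) and 1 probe without a gene name. The acinar enzyme genes Cpb1 (-1.42) and Ctrc (-1.21) and the granule genes Pcsk2 (-1.36) and Chga (-1.21), also named after their values were seen, were also among the 14 lowest. Most dim genes had higher signals on this array than on the other mutant arrays, as the plot of gaps against level shows. The part that the array's raised low signals have in the hormone gaps was not tested.

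**Figure D4:**
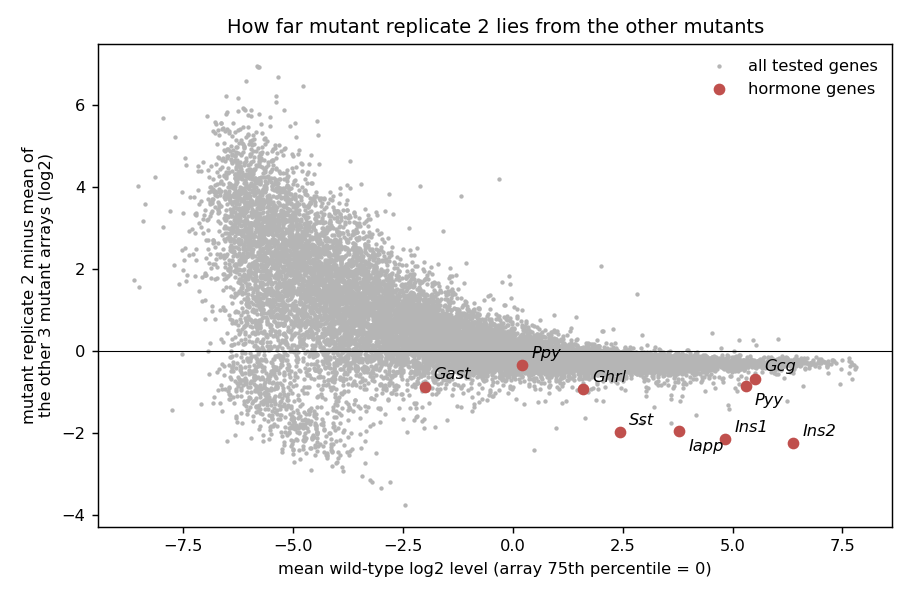
Level in mutant replicate 2 minus the mean of the other 3 mutant arrays (y axis, log2) against the mean wild-type level (x axis, log2 relative to the 75th percentile), with 1 point per tested gene in grey and the hormone genes in red. Dim genes at the left scatter widely, mostly upwards, bright genes lie in a narrow band near -0.27, and Ins2, Ins1, Sst and Iapp lie near -2, below that band.

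Most hormone genes shared their lowest wild-type pool and their highest mutant pool. Wild-type replicate 1 was the lowest wild-type pool for 8 of the 9 genes, all but Iapp, and mutant replicate 3 was the highest mutant pool for all 9. The wild-type range, from lowest to highest pool, was 0.32 for Gast to 0.85 for Iapp. Across the 7 arrays without mutant replicate 2, which share slide and genotype within a group, the Pearson correlation was 0.98 between Ins1 and Ins2, 0.99 between Ins2 and Sst, 0.97 between Sst and Ghrl and 0.93 between Ghrl and Gast, values that include the difference between genotypes. It was 0.24 between Sst and Pyy and 0.43 between Sst and Iapp. Gcg ran against these genes, with -0.61 against Ins2 and -0.69 against Sst, yet among the 4 wild-type pools alone Gcg varied with them (0.80 against Ins2 and 0.92 against Sst). For Iapp the values there were 0.72 against Gcg, 0.24 against Ins1, 0.05 against Ghrl and -0.45 against Gast. These correlations describe 7 and 4 arrays and carry no test.

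Among 15811 named genes, those with the most similar pattern to Sst over the same 7 arrays were Arhgef4 (Pearson r of 0.998), Fev (0.997), a transcription factor of serotonin neurons and endocrine precursors, and Slc35d3 (0.997). For Ins2 they were Arhgap36, Klhl32 and Fam151a, with r from 0.995 to 0.997, and for Ins1 they were Mrpl4, Nudt6 and the granule protein gene Scg2 (0.99 each). For Ghrl they were Dcc, Spock2 and Lrrc57 (0.988 to 0.996), and for Gcg they were Csrnp1, Zfp365 and Aga (0.98 to 0.99). For Gast they were Rmdn3, Fbxl15 and Tceanc2 (0.99 each). For Ppy they were Nudt22, Nat8f1 and Col14a1 (0.98 to 0.99), for Iapp Cux2, Glul and Greb1 (0.97 to 0.99) and for Pyy Zbtb7a, Cbx6 and Rab28 (0.98). With 7 arrays high values are common: 957 genes passed 0.9 for Sst and 40 for Iapp.

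The called transcription factors that act on islet hormone genes, or on the cells that make them, were all lower with all 8 arrays. Of 22 listed factors 21 were tested, 11 were lower and 0 higher, with a median log2 fold change of -0.84. Without mutant replicate 2 the counts were 14 and 1, the latter being Hhex (0.50, limma adjusted p = 0.0126), a factor needed by delta cells. The 4 with the smallest adjusted p were Pdx1 (-1.04 ± 0.07), an activator of the insulin gene, Neurog3 (-1.88 ± 0.15), which starts endocrine differentiation, Insm1 (-1.65 ± 0.14) and Fev (-1.13 ± 0.10), with limma adjusted p of 0.00184, 0.00241, 0.00256 and 0.00282. On the 7 other arrays their log2 fold changes were -1.05, -1.92, -1.52 and -1.13. Beside these counts and those of the lists and markers below, 3.25% of all genes were called lower and 2.23% higher. Without mutant replicate 2, 17.2% of all genes were called in either direction.

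Genes that process and store the hormones moved less evenly. Of 13 tested, 2 were lower and 1 higher, and without mutant replicate 2 the counts were 7 and 1. The secretory granule proteins Chgb (-1.11 ± 0.23, limma adjusted p = 0.0391; -0.86 without that pool) and Scg2 (-0.93 ± 0.18, limma adjusted p = 0.0330; -0.81) fell. Pam, the enzyme that amidates the carboxyl end of peptides such as gastrin, amylin and pancreatic polypeptide, rose by 1.71 ± 0.25 (limma adjusted p = 0.0126), from -1.67 ± 0.51 to 0.04 ± 0.18, in all 4 mutant pools (1.63 without mutant replicate 2). Pcsk1, the convertase that cuts proinsulin, was at -0.07, and Pcsk2, which also cuts proglucagon to glucagon, at -0.83 (limma adjusted p = 0.786 and 0.163). Without mutant replicate 2 they were at 0.04 and -0.49, and Pcsk2 was called lower (limma adjusted p = 0.0172).

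Of 6 tested genes of glucose sensing in beta cells, 2 were lower and 0 higher, and 4 and 2 without mutant replicate 2. Abcc8, the sulfonylurea receptor of the ATP-sensitive potassium channel, was among the lower ones (-0.85 ± 0.12, limma adjusted p = 0.0109; -0.74 without that pool). Of 17 tested receptors and receptor partners of these hormones, 2 were lower and 0 higher (5 and 2 without that pool): Glp2r, a receptor of a Gcg product (-1.56 ± 0.18, limma adjusted p = 0.00614; -1.51 without that pool; dim at -3.47 ± 0.30 in wild type), and Sstr4, a somatostatin receptor (-0.79 ± 0.16, limma adjusted p = 0.0363; -0.71). Of 24 other peptide hormones and neuropeptides, 1 was lower and 0 higher (4 and 4 without that pool), and their median was 0.03. The lower one was Igf1, an insulin-like growth factor (-0.55 ± 0.11, limma adjusted p = 0.0363; -0.45 without that pool). Counts without that pool stand against 17.2% of all genes called, and those with all arrays against 3.25% lower and 2.23% higher.

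**Figure D5:**
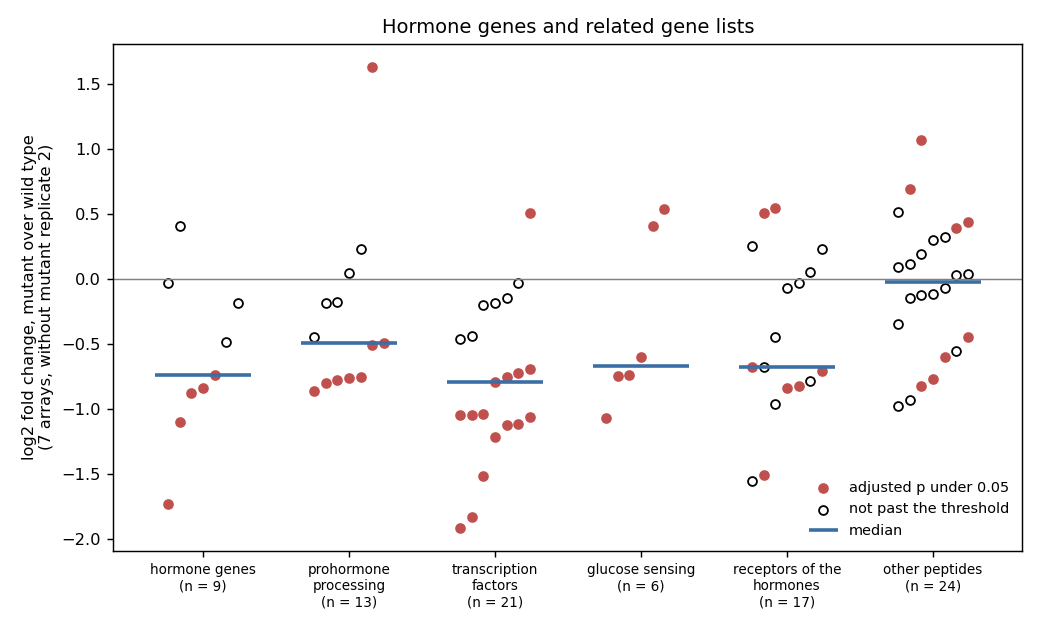
Log2 fold change, mutant over wild type, on the 7 arrays without mutant replicate 2 (y axis) for the 9 hormone genes and the tested members of 5 related lists (x axis). Red points have a limma adjusted p under 0.05 and blue lines are medians. The medians of the hormone genes (-0.74), of the transcription factors (-0.79), receptors (-0.68), glucose sensing genes (-0.67) and prohormone processing genes (-0.49) lie below 0, that of the other peptides at -0.02. With all 8 arrays the medians were -1.06 for the hormone genes, -0.84 for the factors and -0.18 for the receptors. They were -0.46 for glucose sensing, -0.63 for prohormone processing and 0.03 for the other peptides. Of the 17 receptors, 11 were well above background on all arrays.

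Markers of other cells in the dissected tissue give the setting of these values. All 12 mesenchyme markers and, as the epithelial label requires, Epcam, Cdh1, Krt8 and Krt18 were well above background on all arrays. The sum over these 4 genes and Pdx1, the fifth epithelial marker and lower in the mutant, was 145 to 158 in the wild-type pools, 183 to 205 in 3 mutant pools and 149 in mutant replicate 2. Without that pool Krt8 (0.32) and Krt18 (0.42) were called higher (limma adjusted p = 0.0126 and 0.0301). The signals of the 11 acinar markers, summed per array relative to the 75th percentile, were 713 to 886 in the wild-type pools, 661 to 881 in 3 mutant pools and 536 in mutant replicate 2. None of the 11 was called with all arrays, and only Bhlha15 was called, as lower, without that pool (-0.34). Of 9 neuron and Schwann cell markers, 2 were lower, Sox10 (-1.04, and -0.98 without mutant replicate 2) and S100b (-1.62, and -1.84). Without that pool 4 of the 9 were called lower. The summed signals of the 9 were 6.21 to 8.84 in wild type, 3.23 to 5.34 in 3 mutant pools and 3.76 in mutant replicate 2. Some of the granule protein and neuropeptide genes are also expressed in neurons. Of 7 erythroid markers, Hbb-y (1.68, and 1.49 without mutant replicate 2) and Hba-x (1.43, and 1.27) were higher. The summed signals over 6 of the markers, without Hba-a1, were 2.33 to 4.22 in wild type, 4.55 to 7.85 in 3 mutant pools and 11.1 in mutant replicate 2. Hba-a1 was left out of the sum because its spot was marked as an outlier on the array of mutant replicate 1. It was the brightest of these probes, with levels of 5.63, 5.20, 4.65 and 5.21 in the wild-type pools and 5.03, 4.86 and 4.77 in mutant replicates 2, 3 and 4, and did not pass the threshold (-0.29, limma adjusted p = 0.440). Of 10 stomach and gut markers, which bear on Ghrl and Gast, 6 were tested and none was called with all arrays. Without mutant replicate 2 only Sox2 was called, as higher (0.38, dim at -5.22 in wild type). Cdx1, Gkn1, Gkn2 and Pgc were well above background on too few arrays to be tested, and the sum over the 6 was 2.19 to 4.95 in wild type, 2.25 to 2.49 in 3 mutant pools and 2.62 in mutant replicate 2. Of 6 duct markers, Spp1 was lower (-1.13, and -1.05 without mutant replicate 2) and Onecut1 higher (0.96, and 0.95). Without that pool Krt19 (0.48) and Cftr (1.47, dim at -5.09 in wild type) were called higher too. The median of the 6 was then 0.17. Their summed signal was 61.5 to 72.6 in wild type, 37.1 to 41.3 in 3 mutant pools and 32.9 in mutant replicate 2. Spp1, at 5.83 in wild type with Krt19 next at 2.65, made up most of this sum, so its fall mainly reflects Spp1 and not the list. Of 12 mesenchyme markers Nkx3-2 (0.58, and 0.59 without mutant replicate 2) and Barx1 (0.28, and 0.27) were higher. Lum was called lower only without that pool (-0.35). The summed signal of the 12 was 360 to 426 in wild type, 341 to 376 in 3 mutant pools and 289 in mutant replicate 2. This was above the epithelial sum in every pool, though sums over different probes do not give shares of cells. None of the 7 endothelial or 6 myeloid markers was called with all arrays. Without mutant replicate 2 only Emcn, of endothelium, was called, as higher (0.20). The part of these differences in the hormone values was not tested.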

How the data were processed

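Scanner output of 8 one-colour Agilent arrays (design 014868) was analysed. Per the file headers, the deposited processed signal is an intensity in linear units from Agilent Feature Extraction 9.5.3.1, background-subtracted and not normalized between arrays. The series table, deposited by the authors, is also an intensity, for 40928 probes, and served as an alternative only. The submitters' processing notes name limma, without steps.

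Control spots and outlier spots were left out, spots of a probe averaged, and the array's 75th percentile subtracted on the log2 scale. Probes well above background on at least 4 of 8 arrays were kept, with the brightest probe for each gene. Names came from a RefSeq table (GRCm38.p6): 24489 probes matched by accession, 6236 by symbol and 2388 by synonym, and 8061 had none. Genotype was the sole term of a linear model. The model was fitted over the 19386 genes and separately over the probes by limma 3.58.1, two-sided with Benjamini-Hochberg adjustment (R 4.3.3, the data.table package, version 1.17.8). It was tested on simulated data with the wild-type spread in both groups, which held no array like mutant replicate 2. Ratios were compared by exact permutation. Figures used matplotlib.

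The members and lists were chosen with earlier results of these data known. Named were all members with their probes, Sox9, up to 4 called genes of each pathway list by adjusted p, and the 3 genes most correlated with each member over 7 arrays; other genes were named after their values were seen, and some listed genes are not reported here. The number of arrays, 4 per genotype, limits the precision. The 20 alternatives changed the scaling, background, filter, outliers, probe choice, values, weights, variance model and design, or left out 1 array.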

Additional observations from a re-analysis of the deposited data

Results flagged for a closer look

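In 18 groups of 4 arrays (9 hormone genes in 2 genotypes), 2 held an array whose gap to the nearest of the others was above Dixon's 95% critical value. Chance alone marks about 1 in 20 independent groups. These groups are not independent, because the same arrays recur for genes that vary together, so the count cannot be set against that share. Both were mutant replicate 2. For Ins2 its level was 3.25, with the next mutant pool at 5.32 and the highest at 5.72, a gap of 0.837 of the range. For Iapp its level was 1.64, with the next at 3.53 and the highest at 3.72, a gap of 0.910 of the range. The cause was not tested.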

How the results depend on the processing

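Ins1, Ins2, Ppy, Ghrl, Iapp and Gast kept their direction in all 20 alternatives, and Sst in the 19 that measured it. Gcg turned to -0.15 with the array median subtracted, which lowers every gene, and to -0.15 in the series table, which holds only its dim probe and no Sst probe named in the report; Pyy turned to 0.0016 with array weights. The limma counts of called genes (1062), hormone genes (3 of 9) and hormone probes (2 of 13) became 4663, 6 and 9 with array weights, 56, 0 and 0 with the median, and 418, 0 and 0 without the filter on dim probes. The series table gave 2183 genes, the trended robust model 1597 genes and 4 probes, quantile normalization 0 hormone genes and 0 probes, normexp 1 and 0, and the mean of all probes 1 hormone gene. At an unadjusted p under 0.05 the 0 counts of hormone genes stood at 6, and those of probes at 8 (9 with normexp), a cut that 9.29% to 22.9% of all genes and 9.04% to 21.3% of all probes passed there. Leaving out 1 array gave 361 to 3343 genes, 0 to 5 hormone genes and 0 to 8 probes, with 4 to 7 hormone genes and 5 to 10 probes at an unadjusted p under 0.05 (18.2% to 34.7% of all genes, 16.5% to 34% of all probes), and an Ins1 to Ins2 difference of 0.13 to 0.20. All 1062 genes were called in the same direction without mutant replicate 2. Replicate numbers are not stated to pair pools, and same-numbered pools did not deviate together (r of -0.02 to 0.13); with the replicate block limma called 118 genes, 0 hormone genes and 0 probes (6 and 8 at an unadjusted p under 0.05, as for 22.5% of genes and 20.7% of probes), and the Ins2 to Gcg difference of -1.68 had an exact sign-flip p of 0.125, the smallest that 4 pairs can give. Other causes were not tested. Low signal limits Gast and the second Gcg probe.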
